A study of Bos taurus with 20 samples.

Results

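The beta-thymosins TMSB10 and TMSB4 were followed across RNA-seq libraries from the rumen epithelium of 20 steers. The genes were chosen by identifier with earlier results of these data known, and the study had itself named TMSB10 and TMSB4 among genes differing between these steers, so their choice is not independent of the values. They are ENSBTAG00000005654 (TMSB10), ENSBTAG00000034580 and ENSBTAG00000038488, both of the latter carrying the symbol TMSB4 in the study. ENSBTAG00000034580 goes there by a name for hematopoietic system regulatory peptide and ENSBTAG00000038488 by a name for an X-linked gene, so they are written TMSB4 (H) and TMSB4 (X) here, letters that tell the names apart and were not checked against a chromosome. These are 3 of 24616 identifiers listed in each library, and all 3 were among the 14293 that passed the filter on low values. The animals were Hereford x Aberdeen Angus steers on a barley and oat finishing diet, sampled after slaughter, with papillae of the ventral sac as the tissue and 1 library per steer. The study asked which rumen genes differ between feed-efficient and inefficient animals, using residual feed intake (RFI), the gap between the feed an animal eats and the feed predicted from its growth and weight. The sample labels put 9 libraries in Low RFI (efficient) and 11 in High RFI (inefficient).

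Beta-thymosins are very small cytoplasmic peptides that bind actin monomers and keep them from joining filaments. TMSB4 is the main such buffer in most mammalian cells, and TMSB10 is a close relative often described in growing and migrating cells. Because released monomers feed new filaments, the beta-thymosins act beside cofilin and destrin, which sever filaments and return monomers, in the turnover of the actin cytoskeleton. Thymosin beta 4 has many near-identical gene copies in mammals, so reads counted on one TMSB4 identifier may have come from the other, and the locus-by-locus values below are uncertain for that reason. How reads matching more than 1 locus were treated is not given in the sources used here. Gene lengths were not used here, so comparisons between the genes are of reads and not of transcripts.

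Several properties of the libraries bear on these values. Each library had between 9622534 and 13960297 reads on genes, with a median of 11829722. The header code of each library holds the digits 01 (8 libraries), 03 (6) or 12 (6) after its letters, and these are called sets here; what a set stands for is not given in the sources used here. Average-linkage clustering of all tested genes put the libraries of steers 47, 105, 155, 317 and 345 apart from the other 15, and 4 of these 5 belong to set 12, 1 to set 03 and 0 to set 01. Of the 18 steers listed by group in the study, 6 (steers 23, 33, 47, 205, 219 and 455) have the opposite group in the labels, 12 have the same group, and steers 281 and 345 are not listed. Along the order of the header codes, which is also the order of the steer numbers, the first 11 libraries are labelled High RFI and the last 9 Low RFI. Of 5 keratinocyte markers (KRT14, LYPD3, PKP1, PKP3 and SCNN1A), 3 passed the filter. KRT14, the keratin of the basal layer, was at 105 reads over all libraries together and was above 3 reads in 14 of the 20, and the summed level of the 5 markers was 24.8 to 77.0 CPM (reads scaled to a common library total, as deposited). These levels are low for markers of the labelled epithelium, but the pairing of symbol and identifier came from the study's tables and was not checked here, so they say little of the cell makeup. KDR, an endothelial receptor, was at 12.6 to 67.4 CPM and MYL9, a myosin light chain of smooth muscle, at 264 to 531 CPM. In such bulk tissue, fewer cells of a type and less RNA per cell cannot be told apart.

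TMSB10 was among the most highly expressed genes of the tissue. Its mean over the 20 libraries was 1646 ± 740 CPM (SD, n = 20), which was rank 54 among all genes. In set 01 TMSB10 was at 1022 CPM at the lowest, 1156 CPM at the median and 1525 CPM at the highest. In set 03 the corresponding levels were 1015, 1372 and 3913 CPM, with the highest in steer 47 and the next, steer 55, at 2038 CPM. In set 12 they were 1280, 2217 and 2812 CPM. The groups therefore overlapped, but 4 of the 6 libraries of set 12 (steers 105, 155, 317 and 345, at 2292, 2812, 2318 and 2141 CPM) lay above every library of set 01, while steers 115 and 409, at 1280 and 1290 CPM, lay within its range.

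TMSB4 (X) took the larger number of the TMSB4 reads in 20 of 20 libraries, with a mean of 1308 CPM, a coefficient of variation of 51.5% and rank 76. Its level was 784 to 1068 CPM in set 01 (median 899.8), 729 to 3022 CPM in set 03 (median 971) and 1092 to 2603 CPM in set 12 (median 1837). All 6 libraries of set 12 were above the highest library of set 01 on this scale. In set 03, steer 47 at 3022 CPM was again alone, since the next library, steer 55, was at 1308 CPM.

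TMSB4 (H) was lower and varied least, with a mean of 729 CPM, a coefficient of variation of 30.7% and rank 144. It was at 480 to 696 CPM in set 01 (median 558), 450 to 995 CPM in set 03 (median 630.3) and 684 to 1161 CPM in set 12 (median 1051). Steer 409, at 684 CPM, fell below steer 451 of set 01, at 696 CPM, and the other 5 libraries of set 12 were above all of set 01. The 3 identifiers together held 0.219% of the reads on genes in steer 51 and 0.793% in steer 47.

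**Figure D1:**
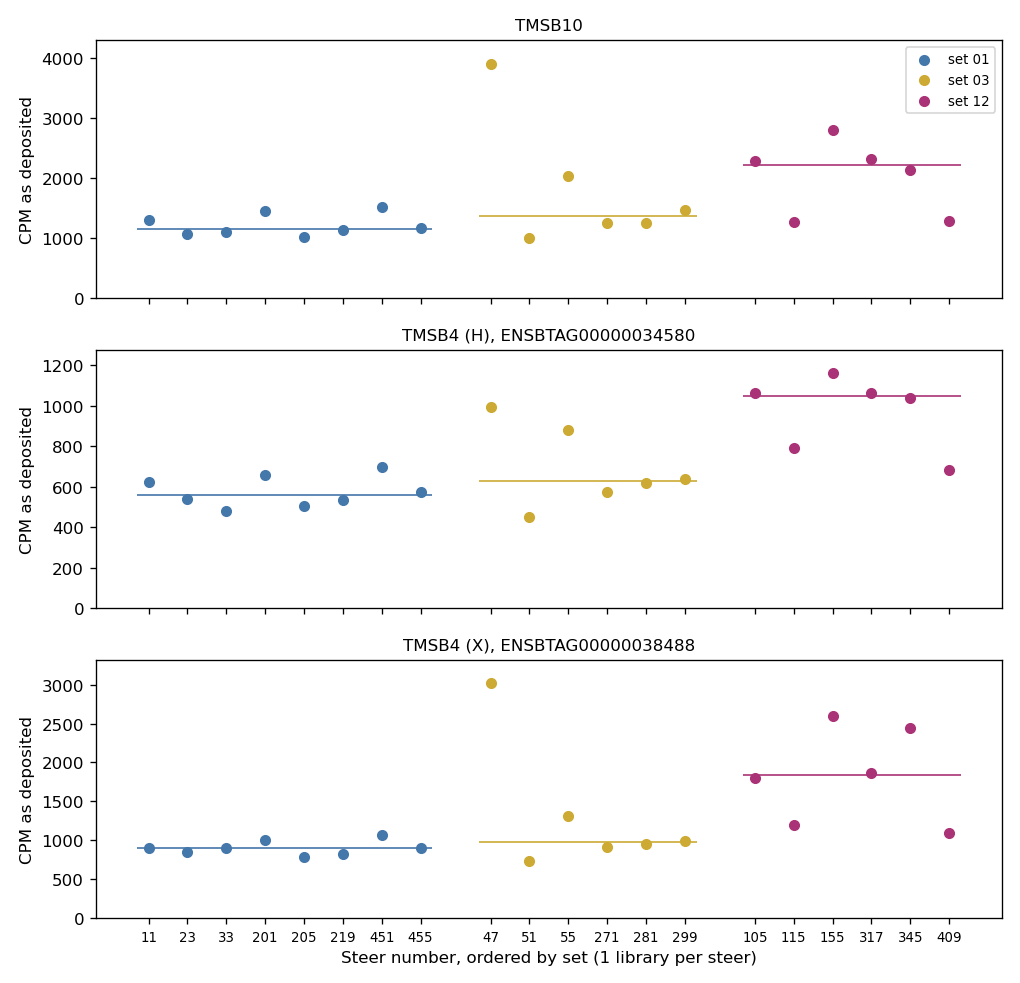
Level of TMSB10 and of both TMSB4 identifiers (CPM as deposited, linear axes from 0) in each of the 20 libraries, ordered by set and steer number; points are libraries and lines are set medians. Steer 47 of set 03 and steers 105, 155, 317 and 345 of set 12 lie above the rest of the libraries for all 3 identifiers.

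The spread of these genes was far larger than counting error. At the mean number of reads, counting alone gives a coefficient of variation of 0.721% for TMSB10, 1.08% for TMSB4 (H) and 0.81% for TMSB4 (X). On the log2(CPM + 1) scale after TMM scaling, which adjusts each library for its composition, the SD over the 20 libraries was 0.73 for TMSB10, 0.61 for TMSB4 (H) and 0.81 for TMSB4 (X), against a median SD of 0.40 for all tested genes. Among the 238 genes with a mean of at least 500 CPM the median SD was 0.48, and the members stood at ranks 42, 91 and 22 from the largest SD. The scaling widened the spread, since without it the SDs were 0.54, 0.43 and 0.62. TMM factors ran from 0.690 in steer 47 to 1.145, and the number of genes detected from 16165 in steer 47 to 17657. Over the 20 libraries the correlation of the scaled log2 level with TMM factor was -0.98, -0.95 and -0.98 for the 3 identifiers. The scaled level is the CPM divided by that same factor, so a negative value is partly built in. The correlation of the scaled log2 level with genes detected was -0.94, -0.92 and -0.94. The first principal component of all tested genes, on the same scaled levels, held 76.7% of their variance, and the members correlated with it at 0.97, 0.96 and 0.99. The members are among these genes, and the sign of the component was set so that its correlation with TMSB10 is positive. The part of library composition in the members' levels was not tested.

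In most libraries the TMSB4 reads were divided between the 2 identifiers in almost the same proportion. TMSB4 (H) held a median of 38.9% of the TMSB4 reads, and 14 of the 20 libraries lay between 38.1% and 40.9%. The remaining 6 were all lower. Steer 47 was at 24.8% (95% exact binomial interval 24.3 to 25.2%), steer 345 at 29.9% (29.4 to 30.3%) and steer 155 at 30.8% (30.4 to 31.3%). Steer 33 was at 34.7% (34.01 to 35.5%), steer 317 at 36.2% (35.7 to 36.7%) and steer 105 at 37.1% (36.6 to 37.6%). These intervals cover counting error only and rest on 13753 to 44039 TMSB4 reads per library. All 5 libraries that clustered apart were thus among the 6 low ones, with a median share of 30.8% against 39.2% in the other 15. Steer 33 was the exception. It did not cluster apart, and its TMSB4 (H) level of 480 CPM was the lowest of set 01 while its TMSB4 (X) level of 901 CPM was close to the set median.

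**Figure D2:**
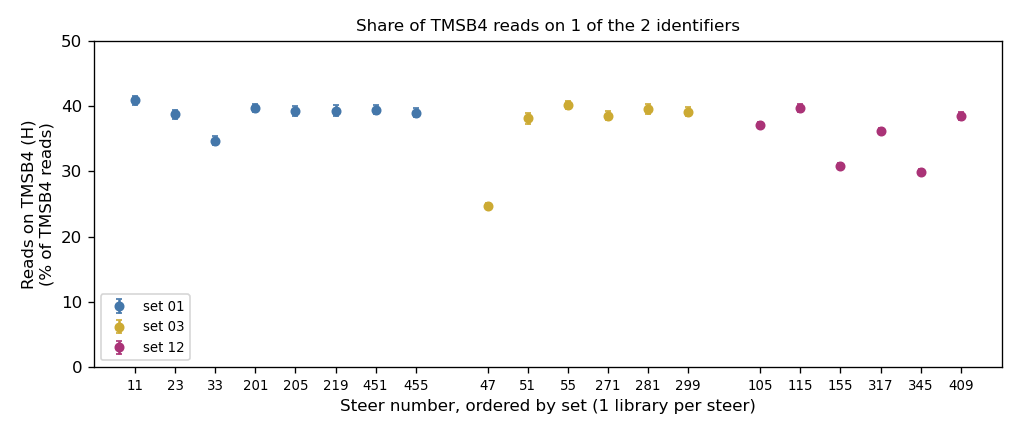
Share of TMSB4 reads counted on ENSBTAG00000034580 (percent, axis from 0) in each library, ordered by set and steer number, with exact 95% binomial intervals. Most libraries lie near 39%, and steers 47, 345 and 155 lie at 24.8%, 29.9% and 30.8%.

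The share was compared between groups by two-sided exact permutation tests over libraries. In libraries labelled Low RFI it was 37.7 ± 3.12% (SD, n = 9) and in those labelled High RFI 36.7 ± 4.92% (SD, n = 11), a difference of 1.00 percentage point that was within the spread (exact p = 0.628). Without steer 47 the difference was -0.20 points, and by the study's list of steers it was -1.73 points (exact p = 0.424). Within sets 01, 03 and 12 the differences by label were 0.57, 4.75 and -1.02 points. Between sets, the share was 38.9 ± 1.80% in set 01 (n = 8), 36.7 ± 5.91% in set 03 (n = 6) and 35.4 ± 4.08% in set 12 (n = 6). Set 12 minus set 01 was -3.52 points (exact p = 0.045, adjusted p = 0.135 over the 3 pairs of sets), and no pair passed after adjustment. Leaving out steer 33 or steer 115 brought that adjusted exact p to 0.0175 or 0.0373. Without the 5 libraries apart the difference of set 12 from set 01 was 0.21 points, and the 2 remaining libraries of set 12 were at 39.7% and 38.5%.

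The 3 identifiers rose and fell together from library to library. On the scaled log2 level over 20 libraries, Pearson's r was 0.955 for TMSB10 with TMSB4 (H), 0.974 for TMSB10 with TMSB4 (X) and 0.969 between both TMSB4 identifiers, with Spearman's rho of 0.971, 0.970 and 0.985. Each permutation p was 1e-05, the smallest that 100000 permutations can give, or 1.33e-05 after adjustment over the 4 correlations computed. Without steers 47 and 155, the 2 farthest from the median of TMSB10, r was 0.969, 0.948 and 0.969. Over the 15 libraries that did not cluster apart, r was 0.912, 0.899 and 0.971. Within sets 01, 03 and 12, r was between 0.892 and 0.995 for every pair. On CPM as deposited the 3 values were 0.907, 0.953 and 0.930.

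This covariation was shared with a large part of the transcriptome. Of 14292 other tested genes, 14.7% had r above 0.9 with TMSB10, 14.9% with TMSB4 (H) and 16.5% with TMSB4 (X), and 16.6%, 15.5% and 19.9% had r below -0.9. In the order of likeness to TMSB10, TMSB4 (X) was only 143rd and TMSB4 (H) 724th. The relation between TMSB10 and the TMSB4 share was of another kind. It was examined after the data had been seen, with r = -0.779 (permutation p = 0.00046) but rho = -0.296 (permutation p = 0.204) over 20 libraries. Without steers 47 and 155 r was -0.446, and over the 15 libraries not apart it was 0.466, so the negative relation rests on the libraries that stood apart.

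**Figure D3:**
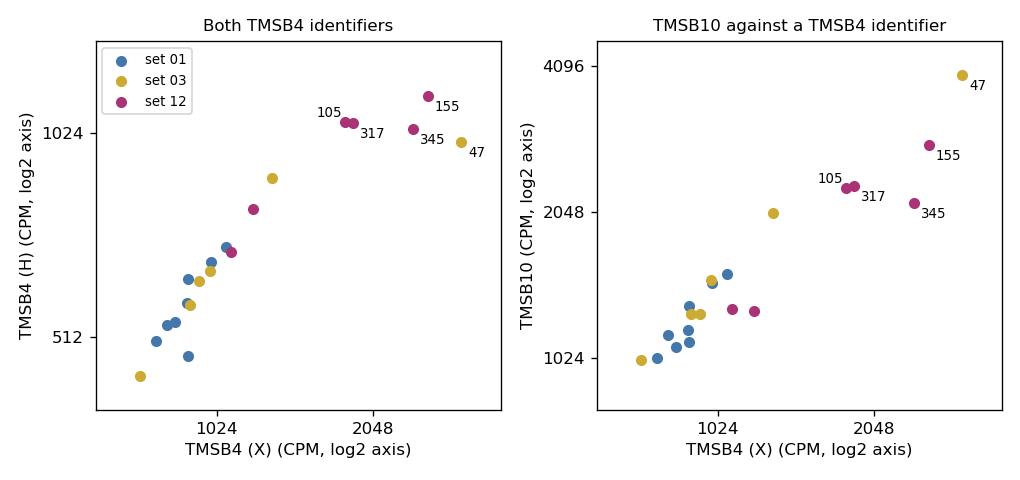
Left, level of TMSB4 (H) and, right, level of TMSB10 against level of TMSB4 (X), in CPM as deposited on log2 axes; each point is a library, coloured by set, and the 5 libraries that clustered apart carry their steer number. On the left the apart libraries, most of all steers 345 and 47, bend away from the line of the others; on the right steer 345 lies lowest relative to the others.

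TMSB10 was also compared with the sum of the TMSB4 reads within each library, a ratio that no library scaling can change. TMSB10 had fewer reads than both TMSB4 identifiers together in 20 of 20 libraries, with a median log2 ratio of -0.32, and more reads than TMSB4 (X) alone in 19. The log2 ratio was -0.37 to -0.19 in set 01 (mean -0.28 ± 0.069 SD, n = 8). It was -0.32 to -0.038 in set 03 (mean -0.17 ± 0.10 SD, n = 6), with the highest ratio in steer 47. It was -0.70 to -0.32 in set 12 (mean -0.48 ± 0.16 SD, n = 6), with the lowest in steers 345 at -0.70 and 115 at -0.64. Sets 12 and 03 did not overlap.

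In set 12 the ratio was lower than in set 01 by 0.20 (difference -0.20, exact p = 0.003, adjusted p = 0.0045) and lower than in set 03 by 0.31 (difference -0.31, exact p = 0.00216, the smallest that 6 against 6 libraries allow, adjusted p = 0.0045). Set 03 was above set 01 by 0.10 (exact p = 0.0446, also after adjustment), a call that was lost without steer 47 (0.076, adjusted exact p = 0.1002) and without any of steers 23, 33, 55, 205, 219, 299 and 455 (adjusted exact p of 0.0571 to 0.0824). The lower ratio of set 12 was as large without the libraries apart. With all 5 left out, steers 115 and 409 alone gave a difference of -0.27 from set 01 and -0.35 from set 03. Few splits are possible with 2 libraries, and neither difference passed (adjusted exact p = 0.0667 and 0.0714). The lower ratio of set 12 did depend on the TMSB4 locus. Against TMSB4 (X) alone, set 12 was lower than set 01 by 0.28 (adjusted exact p = 0.00325), whereas against TMSB4 (H) alone the difference was -0.059 (adjusted exact p = 0.488). By RFI label the difference in log2 ratio was -0.044 (exact p = 0.568), and by the list of steers 0.027 (exact p = 0.703).

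**Figure D4:**
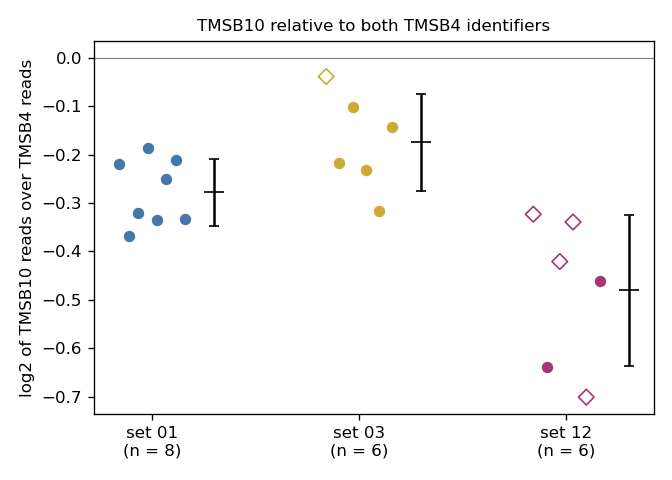
log2 of TMSB10 reads over the reads of both TMSB4 identifiers, by set; filled points are libraries, open diamonds the 5 libraries that clustered apart, and bars the mean and SD of each set. Every library lies below 0, and the 6 libraries of set 12 lie below all 6 of set 03.

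Between RFI groups no beta-thymosin passed the test. With limma on scaled log2 levels, 0 of 14293 genes passed an adjusted p of 0.05 (0% called; 110 at an unadjusted p under 0.05), and edgeR and DESeq2 on the recovered reads also called 0 (163 and 245 unadjusted). TMSB10 was at 1141, 1290 and 2318 CPM (lowest, median and highest) in libraries labelled Low RFI and at 1015, 1310 and 3913 CPM in those labelled High RFI. The log2 fold change of Low over High RFI was -0.13 (SE 0.32, 95% interval -0.80 to 0.54) for TMSB10. It was -0.043 (SE 0.27, interval -0.60 to 0.51) for TMSB4 (H) and -0.11 (SE 0.36, interval -0.85 to 0.63) for TMSB4 (X), with an adjusted p of 1.00 for each in limma. The signs were not stable. Without steer 47 they turned, to 0.044, 0.055 and 0.067. That of TMSB4 (H) also turned without any 1 of steers 105, 155, 219, 271 and 455, and that of TMSB4 (X) without steer 155. With the groups of the study's list the values were -0.017, -0.12 and -0.0053, again with an adjusted p of 1.00 in limma. The study, with its own grouping of steers, reported TMSB10 higher and TMSB4 (X) lower in its L-RFI group. The label-based intervals above, which rest on other groups than the study's, include the fold changes it gave for both. That of TMSB10 lies just inside the upper limit. These fits therefore cannot exclude the study's values.

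Within set 01 the levels were higher in Low RFI libraries by 0.18, 0.18 and 0.15 (log2). Within set 03 the differences were -0.80, -0.47 and -0.79, and within set 12 they were -0.17, -0.18 and -0.11. None of these passed an exact permutation test, with p between 0.321 and 0.8; the smallest p possible was 0.0179 in set 01 and 0.1 in the others. The first letter of the header code, A, B or C, was nearly tied to the label, with 9 High RFI libraries under A, 2 Low RFI libraries under C and both kinds only under B (7 Low, 2 High). Within B the differences were 0.44, 0.44 and 0.57, with exact p of 0.306 to 0.361.

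Between sets, the 3 identifiers were higher in set 12 than in set 01. The log2 fold change was 0.93 (SE 0.33, adjusted p = 0.0212 in limma) for TMSB10, 0.99 (SE 0.24, adjusted p = 0.00354) for TMSB4 (H) and 1.21 (SE 0.34, adjusted p = 0.00638) for TMSB4 (X), or 1.90, 1.98 and 2.31-fold. This is read against a background in which 62.5% of all tested genes passed in that comparison, 30.8% higher and 31.6% lower in set 12, so that passing the test was the rule and not the exception. Ordered from the most negative to the most positive log2 fold change, the members stood at the 94.4th, 95.7th and 99.0th percentile of all tested genes. By absolute size, in either direction, they ranked 3141, 2747 and 1680 of 14293 from the largest. On CPM as deposited the log2 fold changes were 0.67, 0.73 and 0.95, so the members were still higher in set 12. The median log2 fold change of all genes moved to -0.23, and 34.2% of the called genes were higher in set 12 in place of 49.4%.

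Without steer 155 the adjusted p of TMSB10 was 0.064 in limma (log2 fold change 0.77). Without all 5, only 7 genes passed of 14293, and the log2 fold changes of the members were 0.15 (interval -0.35 to 0.64), 0.43 (-0.035 to 0.89) and 0.41 (0.0055 to 0.82), with adjusted p of 0.699, 0.245 and 0.225 in limma. Set 12 then held 2 libraries, which the fit takes to vary like the others. The 5 libraries left out are also the 5 highest for all 3 identifiers, so leaving them out lowers the members' fold changes by construction and is no test of their stability.

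Neither of the other set comparisons called a member. In set 03 against set 01, 0.385% of genes passed, and the members' log2 fold changes were 0.57, 0.37 and 0.52 (adjusted p of 0.243 to 0.282 in limma). Without steer 47 they were 0.21, 0.15 and 0.13. In set 12 against set 03, 0.553% passed, and the values were 0.35, 0.62 and 0.69 (adjusted p of 0.486, 0.176 and 0.233 in limma). This comparison turned mostly on a single library. Without steer 47, 7377 genes (51.6%) passed in place of 79, and the members reached 0.72, 0.85 and 1.08 (adjusted p of 0.0299, 0.01 and 0.00989 in limma). Leaving out any other library gave 8 to 410 calls. The 3 set comparisons share their libraries in pairs and are not independent.

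**Figure D5:**
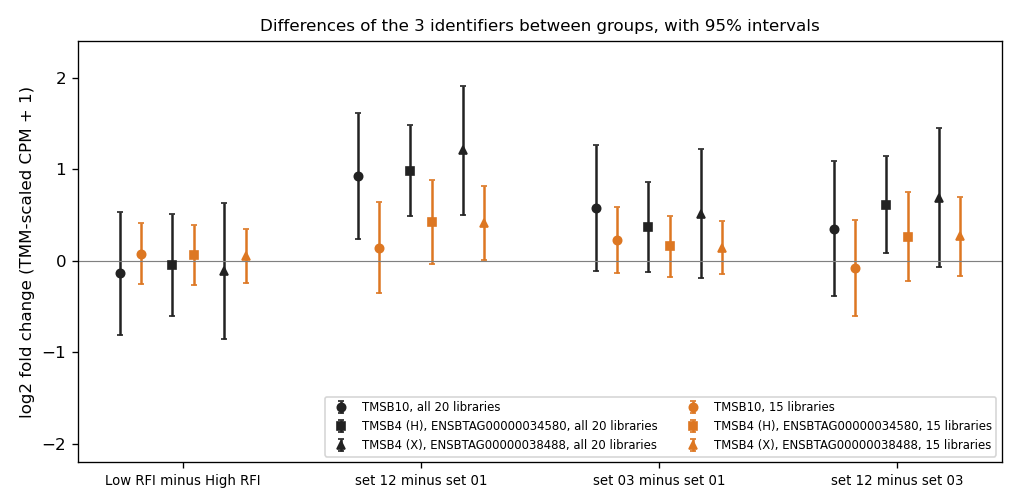
log2 fold change of the 3 identifiers (TMM-scaled CPM + 1) in each of the 4 comparisons, with 95% intervals from limma; black symbols use all 20 libraries and orange symbols the 15 that did not cluster apart. The intervals of set 12 minus set 01 lie above 0 in black, and in orange those of TMSB10 and TMSB4 (H) include 0.

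The other genes of actin structure and turnover that the study's tables pair with an identifier were ACTB, CFL1, DSTN, MYL9, RHOG and HSPB1. Most of these were chosen by the study for differing between these steers, so their direction is not independent evidence. In set 12 against set 01, 5 of the 6 passed and were higher, and 0 were lower, with a median log2 fold change of 0.72 against -0.0076 over all genes, of which 62.5% passed and 30.8% were higher. ACTB, the cytoplasmic actin that beta-thymosins bind, was at 4343 to 6155 CPM in set 01 and 6660 to 8765 CPM in set 12, which did not overlap, and rose by 0.77 (SE 0.21, adjusted p = 0.00629 in limma). CFL1, cofilin, was at 1387 to 2032 and 2007 to 2720 CPM and rose by 0.75 (adjusted p = 0.00359 in limma). MYL9 rose by 0.85, RHOG, a small GTPase of the cytoskeleton, by 0.69 and HSPB1, a small heat shock protein that binds actin, by 0.55. DSTN, destrin, had a log2 fold change of 0.34 (adjusted p = 0.194 in limma). In the other 3 comparisons 0 of the 6 passed. On CPM as deposited 4 of the 6 passed and were higher in set 12 against set 01 (20.3% of all genes), and without steers 47, 317, 105 and 155 also 4 (21.5%). Without all 5 libraries apart 0 passed, where 7 of all genes did, with a median log2 fold change of 0.44. Without steer 47, 5 of the 6 passed and were higher in set 12 against set 03, where 51.6% of all genes passed and 24.1% were higher. KDR fell by 0.56 in set 12 against set 01 (adjusted p = 0.0413 in limma), with 35.9 to 58.6 CPM in set 01 and 15.4 to 44.1 CPM in set 12, a call that edgeR did not make and that was lost without the 5 libraries (-0.21). The keratinocyte markers summed to 27.2 to 37.96 CPM in set 01, 31.4 to 77.0 in set 03 and 24.8 to 38.2 in set 12, and 0 of the 3 tested passed in any comparison with limma on all 20 libraries. In set 03 against set 01, DESeq2 called 2 of the 3 higher, among 721 genes called, and limma without the 5 libraries called 1 higher, among 194. In set 12 against set 03, DESeq2, edgeR and limma without steer 47 each called 1 lower, among 998, 217 and 7377 genes called. The part of the cell makeup in the members' differences was not tested.

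CFL1 stayed close to the members outside the apart libraries as well. Over the 15 libraries not apart, its correlation with the scaled log2 level of TMSB10, TMSB4 (H) and TMSB4 (X) was 0.83, 0.90 and 0.89. ACTB was at 0.72, 0.77 and 0.83 there, and at 0.93, 0.92 and 0.95 over all 20. Within set 01, which held 0 of the apart libraries, ACTB was lower, at 0.43, 0.43 and 0.62. It was at 0.98, 0.96 and 0.97 in set 03 and 0.90, 0.93 and 0.98 in set 12. DSTN showed the widest gap, with 0.78, 0.64 and 0.71 over all 20 libraries and 0.24, 0.020 and 0.0074 over the 15. The low values over the 15 did not hold within sets. There DSTN was at 0.82, 0.72 and 0.80 in set 01, 0.74, 0.65 and 0.78 in set 03, and 0.82, 0.72 and 0.69 in set 12.

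Of the 112 genes that the study pairs with a symbol, 106 were tested, and those with the pattern most like each member over 20 libraries were named by Pearson's r. Most of the 112 were listed by the study for differing between these steers, so their likeness to the members is not independent evidence. For TMSB10 they were PSMB6 (r = 0.978), TMEM147 (0.975), UBL5 (0.969), PSMB5 (0.967) and RPS15 (0.966), of which PSMB6 and PSMB5 encode catalytic subunits of the proteasome. For TMSB4 (H) they were BANF1 (0.977), TMEM147 (0.975), CAPNS1 (0.972), SH3BGRL3 (0.971) and RPS15 (0.970). For TMSB4 (X) they were RPS15 (0.996), UBL5 (0.992), TMEM147 (0.991), RPL10 (0.984) and PSMB6 (0.982). RPS15, a protein of the small ribosomal subunit, was second of all 14292 genes in likeness to TMSB4 (X), with r = 0.978 over the 15 libraries not apart. For TMSB10 and TMSB4 (H) it was only 353rd and 210th. The most alike symbols there, PSMB6 and BANF1, were 61st and 81st of all genes, so many genes without a symbol stood closer. TMEM147 and RPS15 stood in all 3 lists.

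The patterns most opposed to the members were those of YTHDC2 (r = -0.970), TARDBP (-0.958) and GCC2 (-0.954) for TMSB10. They were GOLGB1 (-0.963), CCDC186 (-0.958) and HCFC1 (-0.946) for TMSB4 (H), and GCC2 (-0.987), YTHDC2 (-0.984) and HCFC1 (-0.980) for TMSB4 (X). YTHDC2 and TARDBP bind RNA, and GOLGB1 and GCC2 encode large coiled-coil proteins of the Golgi apparatus. Among identifiers without a symbol, ENSBTAG00000019077 (r = 0.987) and ENSBTAG00000039512 (r = -0.986) stood highest and lowest for TMSB10. All of these values share the same 20 libraries.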

How the data were processed

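The authors aligned paired reads to UMD3.1 with TopHat2 and Bowtie2, counted reads per Ensembl gene with HTSeq-count and deposited CPM, the reads of a gene divided by all reads on genes of the library and scaled to a common total. The submitters' notes give CASAVA 1.8 and TopHat2 2.0.10. The labels and the methods name different extraction kits. Whole reads were recovered by dividing by the smallest value above 0, and 100% came out whole (tolerance 0.01 reads). A count of 0 allows up to 3 reads, or 0.215 to 0.312 CPM.

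Levels were tested with limma 3.58.1 (trend) in R 4.3.3 on log2(TMM-scaled CPM + 1), for 14293 genes past filterByExpr (minimum count 10), with Benjamini-Hochberg adjustment. The fit for sets held all 20 libraries. edgeR 4.0.16 and DESeq2 1.42.0 on recovered reads were alternatives. Fold changes on this scale understate those of low genes. Shares and ratios were compared by exact permutation and correlations with 100000 permutations (Python 3.11.15, numpy 2.4.6, scipy 1.17.1). In simulated data, 200 of 14293 genes were changed. In the RFI comparison limma recovered 64% of genes changed 2-fold and 86% of those changed 3-fold, with 10 false calls. In set 12 against set 01 it recovered 65% and 85%, with 12 false calls. Recovery of smaller changes, such as the study gave for TMSB10 and TMSB4 (X), was not tested. Whether these rates hold for the measured libraries was not tested.

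Groups came from the sample labels, because the study's list of steers is not a label; the list was used as an alternative. No identifier (0 of 24616) is in the gene table used here, so symbols came from the study's tables, and coordinates, sequences and lengths were not used here. Named genes were the members, the actin and marker lists, and the 5 most and 3 least alike symbols per member, with at most 2 unsymboled identifiers at each end. The members, lists and tests were chosen with earlier results of these data known. The alternative without all 5 libraries apart was added after seeing the data. P-values measure the spread between libraries, each of 1 steer.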

Additional observations from a re-analysis of the deposited data

Results flagged for a closer look

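In groups of 4 to 10 libraries, the highest or lowest value was compared with its nearest neighbour by Dixon's ratio. Of 20 combinations of measure and group, 5 had a library beyond the critical value, where chance gives about 1 in 20. In set 03, steer 47 stood far above the others in TMSB10 (3913 CPM, next 2038) and in TMSB4 (X) (3022 CPM, next 1308). Its share of TMSB4 reads on ENSBTAG00000034580 was also far below the others of the set (24.8%, next 38.1%). In set 01, steer 33 had a low share of 34.7%, with the next at 38.8%. Among libraries labelled Low RFI, steer 345 had a low share of 29.9%, with the next at 36.2%. Steers 47 and 345 are among the 5 libraries that clustered apart over all genes, and steer 33 is not. Steer 33 and steer 47 are labelled High RFI but listed by the study as L-RFI, and steer 345 is not listed. The causes were not tested.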

How the results depend on the processing

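Counts of genes called moved most with the libraries and the tool. In set 12 against set 01, 8927 genes were called, and 7 without all 5 libraries apart (leave-one-out 7044 to 9935). In set 03 against set 01, 55 became 721 with DESeq2, 101 with edgeR, 28 without steer 47 and 194 without the 5 (leave-one-out 17 to 277, over 1.5 times away without steer 11, 23, 33, 47, 51, 55, 205, 281, 299 or 455). In set 12 against set 03, 79 became 132 on CPM as deposited, 998 with DESeq2, 217 with edgeR, 7377 without steer 47, 18 without steers 47, 317, 105 and 155, and 0 without the 5, where limma left 1135 genes at an unadjusted p under 0.05 (leave-one-out 8 to 7377, over 1.5 times away without steer 33, 47, 51, 105, 155, 271, 317, 345 or 409). In the RFI comparison the count was 0 under all 12 alternatives and all 20 leave-one-out fits.

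The difference in TMSB4 share by RFI label turned to -0.20 points without steer 47, -0.997 without steers 47, 317, 105 and 155, and -1.73 with the groups of the steer list (leave-one-out -0.20 to 1.98). By set, the share in set 03 turned to 0.23 points above set 01 without steer 47, without the 4 steers and without the 5, and set 12 to 0.21 above set 01 without the 5. Leave-one-out values were -4.39 to -2.43 for set 12 minus set 01, -2.86 to 0.23 for set 03 minus set 01 and -3.75 to -0.26 for set 12 minus set 03. The log2 ratio of TMSB10 to TMSB4 by RFI label turned to 0.021 without the 5, to 0.024 for the 12 steers with the same group in both sources and to 0.027 with the steer list (leave-one-out -0.079 to 0.00272). For set 12 minus set 01 it lost its call without the 5 (-0.27) and with TMSB4 (H) alone (-0.059), and for set 12 minus set 03 likewise (-0.35 and -0.26). For set 03 minus set 01 the call was lost at 0.076 without steer 47, without the 4 steers and without the 5, at 0.20 with TMSB4 (H) alone and at 0.057 with TMSB4 (X) alone (leave-one-out 0.076 to 0.13). The correlations kept their sign and stayed past the threshold under all 6 alternatives.

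By RFI label, the log2 fold changes of TMSB10, TMSB4 (H) and TMSB4 (X) turned to 0.044, 0.055 and 0.067 without steer 47, to 0.22, 0.21 and 0.27 without the 4 steers, and to 0.078, 0.064 and 0.054 without the 5. With edgeR they were -0.35, -0.13 and -0.28, with DESeq2 -0.35, -0.13 and -0.28, and with set as a covariate in limma -0.23, -0.13 and -0.22, none of them called. Leave-one-out values ranged from -0.25 to 0.044, -0.16 to 0.066 and -0.29 to 0.067. TMSB10 in set 12 minus set 03 turned to -0.081 without the 5. The 5 libraries apart are the highest for all 3 identifiers and 4 of them are in set 12, so fits without them lower the members' level in set 12 by construction. By RFI label 2 of the 5 are Low and 3 High, and the members' log2 fold changes of Low over High rose without them. The causes were not tested. No paired analysis was possible because the labels carry no replicate number shared between groups. With set as a covariate, limma called 0 genes by RFI label (287 at an unadjusted p under 0.05), and the adjusted p of each member was 0.969.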
